A study of Oryza sativa with 17 samples.

Results

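A set of 28 genes, of 32657 in the deposited table, was read in every black rice library and stayed below an FPKM of 1 in every red rice library. FPKM is the number of fragments scaled by transcript length and by library size, so that levels of different genes can be set side by side. The members were chosen by their measured FPKM in BR and RR alone: an FPKM of at least 5 in all 6 libraries of Nanheinuo, the black rice (BR), and below 1 in all 11 libraries of Yuhongdao 5815, the red rice (RR). Left out beforehand were LOC4325716, LOC4341576 and the 100 genes with the highest mean over the BR controls. Of these only LOC4325716 met both levels.

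RNA of developing grains was sequenced in 6 groups. BR grains at 10 days after flowering (DAF) gave 3 Fe and 3 control libraries, RR grains gave 3 Fe and 2 control libraries at 15 DAF and 3 Fe and 3 control libraries at 20 DAF. Fe plants received a foliar spray of FeSO4·7H2O (0.1% w/v, the strength named for the network analysis of the study), and control plants received deionized water. Both sprays held nicotinamide (0.5% w/v) and Tween 80 (0.005% v/v) and were given at the end of booting and again 7 days later, and a biological replicate stood for 6 pails of pot-grown plants. No day was shared by BR and RR. Variety and day after flowering are confounded in these libraries, and whether a member is tied to the variety or to the day cannot be told apart. Each group also stands for 1 variety only. The words "black-rice-only" are used below for the level rule and for nothing else.

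A rice grain at this time consists of a maternal pericarp and seed coat, which carry the pigment, around a filial endosperm, aleurone and embryo. The flavonoid pathway makes the pigments of both kinds of grain, anthocyanins in black pericarp and proanthocyanidins in red pericarp. Young pericarp is green and still alive while the endosperm fills with starch and storage protein, and the outer tissues dry and die as the grain ripens. Whole grains were used, so fewer cells of a tissue and less RNA per cell cannot be told apart in these values.

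Transcripts of filling grain were read in every library, at the lowest summed levels in RR at 20 DAF. Summed FPKM of 45 genes for storage proteins and starch synthesis was 252752 to 299945 in BR, 51266 to 197492 in RR at 15 DAF and 6592 to 23227 in RR at 20 DAF. Among the RR libraries at 15 DAF, Fe replicates 2 and 3 stood apart, with 51266 and 54055 against 153194 to 197492 in Fe replicate 1 and the 2 controls. Total FPKM per library ran from 547675 to 679747, and read depth is unknown.

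The set was a small part of the genes that BR grains expressed. An FPKM of at least 5 in all 6 BR libraries was reached by 4565 genes, and the 28 members were 0.613% of them. Of the same 4565 genes, 108 were below 1 in all 6 RR libraries at 20 DAF and 34 were below 1 in all 5 RR libraries at 15 DAF. Both conditions held for 29 genes, 79 were low at 20 DAF only, and 5 were low at 15 DAF only. The 79 genes reached an FPKM of 1 in at least 1 RR library at 15 DAF, and the members are among the 29 that did so at neither day. In the 3 libraries at 15 DAF other than Fe replicates 2 and 3, 44 genes were below 1.

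**Figure D1:**
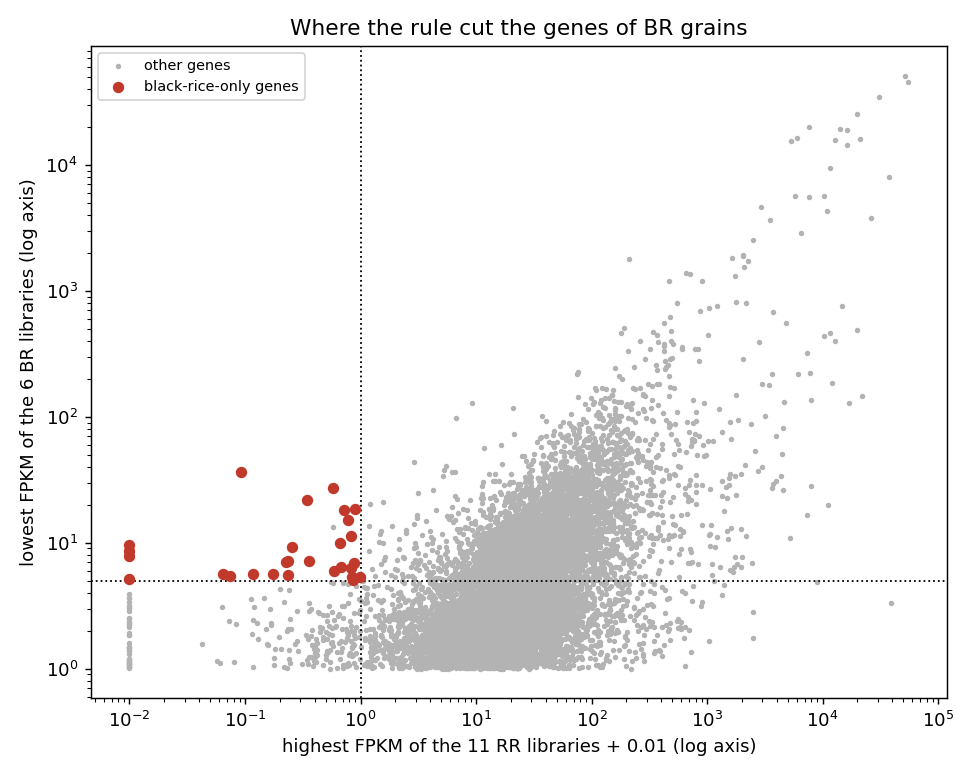
Lowest FPKM over the 6 BR libraries (vertical log axis) against the highest FPKM over the 11 RR libraries plus 0.01 (horizontal log axis) for every gene with at least 1 in all BR libraries; dotted lines mark the levels of 5 and 1. The 28 black-rice-only genes (red) fill the upper left field with LOC4325716, the 1 grey point there, and the 4 members at the far left were listed at 0 in all RR libraries.

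The level rule chose the members, so the gap between BR and RR is given as a description, without a test. Mean FPKM over the BR libraries ran from 7.11 (LOC4332733) to 73.2 (LOC4342974), with a median of 12.8. It was at least 50 for 4 members, at least 20 for 6 and below 10 for 10. Over the RR libraries the highest mean of a member was 0.501 (LOC4325624), and the median was 0.0447. Summed over the 28 members, FPKM was 493 to 714 in BR libraries and 1.88 to 6.68 in RR libraries. Members thus gave 0.0726% to 0.107% of all FPKM in BR.

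**Figure D2:**
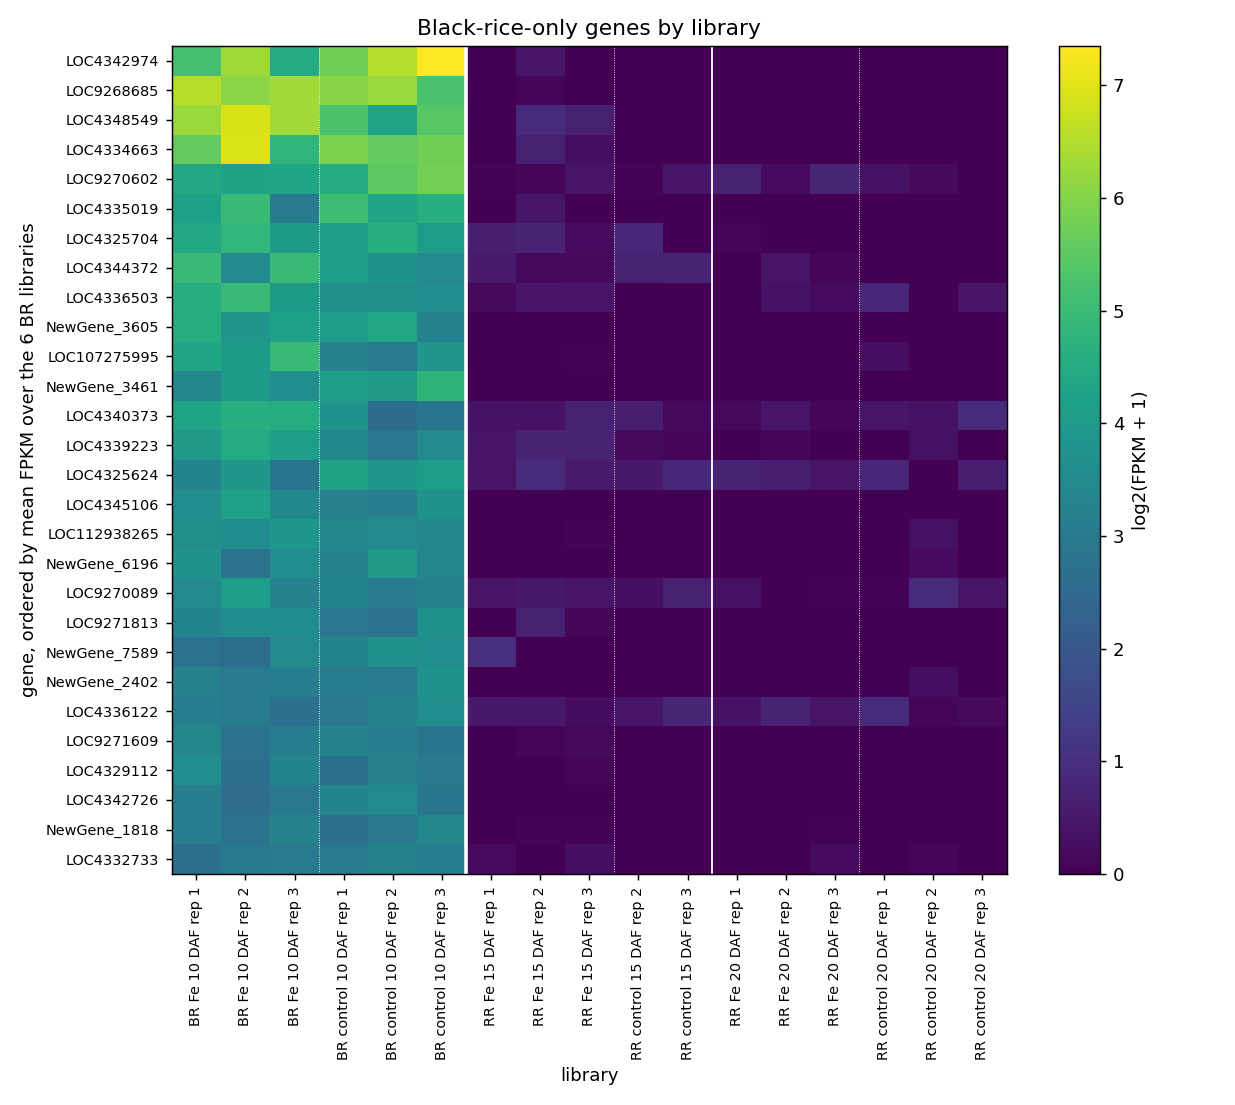
log2(FPKM + 1) of the 28 black-rice-only genes (rows, by mean BR level) in the 17 libraries (columns; BR Fe, BR control, then RR Fe and control at 15 and at 20 DAF). BR means run from 7.11 to 73.2 FPKM and every RR value is below 1.

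The 4 most abundant members lay well above the rest. LOC4342974 had 34.7, 77.8 and 21.8 FPKM in the Fe grains of BR (replicates 1, 2 and 3), against 53.5, 89.2 and 162 in the control grains. LOC9268685, annotated as a miscellaneous RNA and not as a protein-coding gene, had 93.1, 65.9 and 79.9 FPKM in Fe grains, against 64.8, 72.7 and 36.6 in control grains. The arms of both genes overlapped, and LOC4342974 spread the most of all members, with a coefficient of variation of 68.9% over the 6 libraries. LOC4348549 had 74.5, 120 and 80.1 FPKM in Fe grains, against 37.3, 18.6 and 42.3 in control grains, and the arms did not overlap. LOC4334663 had 46.9, 123 and 27.0 FPKM in Fe grains, against 58.5, 47.4 and 53.2 in control grains. Fe replicate 2 alone was high for this gene, and Fe replicate 3 alone was low.

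In RR these 4 genes were listed at 0 in 9 or 10 of the 11 libraries. Their highest RR values were 0.331 (LOC4342974), 0.0827 (LOC9268685), 0.881 (LOC4348549) and 0.566 FPKM (LOC4334663), and all 4 came from Fe replicate 2 at 15 DAF.

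The next 6 members lay between 16.3 and 30.1 FPKM on average in BR. LOC9270602, annotated as a pseudogene, had 20.6, 18.2 and 19.5 FPKM in Fe grains, against 22.0, 45.3 and 54.8 in control grains, so that every Fe library was below every control library. It was also read in 10 of the 11 RR libraries, at up to 0.713 FPKM. LOC4335019 had 17.4, 29.7 and 7.11 FPKM in Fe grains, against 32.3, 19.0 and 23.7 in control grains. LOC4325704 had 20.7, 28.0 and 15.2 FPKM in Fe grains, against 16.5, 23.8 and 15.4 in control grains. Both genes overlapped between the arms, and for both Fe replicate 3 was the lowest of the 6 libraries.

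LOC4344372 had 29.9, 10.7 and 29.8 FPKM in Fe grains, against 16.0, 12.4 and 10.0 in control grains, with Fe replicates 1 and 3 high and Fe replicate 2 within the control range. LOC4336503 had 23.7, 29.8 and 15.2 FPKM in Fe grains, against 11.6, 11.4 and 11.2 in control grains, the smallest control spread among the members (SD 0.171, n = 3). NewGene_3605, a gene of the authors' assembly that is not in the annotation, had 22.7, 13.3 and 17.3 FPKM in Fe grains, against 15.4, 20.2 and 8.63 in control grains. It was listed at 0 in all 11 RR libraries, the most abundant member of which this held.

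Of the other 18 members, 8 averaged 10 to 16 FPKM in BR and 10 averaged 7 to 10 FPKM. LOC112938265 was the steadiest, with 9.29 to 13.4 FPKM over the 6 BR libraries and a coefficient of variation of 13.7%. LOC4332733 (5.57 to 8.67 FPKM, 14.5%) and LOC9271609 (5.69 to 9.35 FPKM, 18.5%) followed. The median coefficient of variation was 31.8% over the members, beside 21.0% over the 4565 genes at FPKM of at least 5 in all BR libraries. In 6 members the highest BR library was more than 4 times the lowest, and in 8 members it was less than 2 times the lowest. The extremes were shared out over the libraries: Fe replicate 2 was the highest for 8 members and the lowest for 6, control replicate 3 was the highest for 7 and the lowest for 4, and control replicate 2 was the lowest for 7 and the highest for 4.

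The low values in RR were uneven over members and libraries. Listed at 0 in all 11 RR libraries were 4 members: NewGene_3605, NewGene_3461 (9.67 to 26.7 FPKM in BR), LOC4345106 (7.81 to 17.4) and LOC4342726 (5.17 to 10.3). At the other end, LOC4340373 and LOC4336122 were above 0 in all 11, at 0.0964 to 0.857 and 0.0755 to 0.830 FPKM, and LOC9270602, LOC4325624 and LOC9270089 in 10 of 11. In all, 13 members were above 0 at both days, 9 were above 0 at 15 DAF only, and 2 (NewGene_6196 and NewGene_2402) at 20 DAF only.

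Members above 0 numbered 12, 17 and 18 in the RR Fe libraries at 15 DAF, against 8 and 7 in the control libraries of that day. At 20 DAF they numbered 6, 7 and 9 in Fe libraries and 7, 9 and 6 in control libraries. Over the whole table, genes above 0 numbered 23292, 22838 and 23671 in the Fe libraries at 15 DAF, against 23563 and 20184 in the control libraries of that day, so that control replicate 3 had fewer genes above 0 of any kind. Fe replicates 2 and 3 at 15 DAF, which also had the low storage transcripts, were the only RR libraries above 0 for 7 members. These were LOC4342974, LOC9268685, LOC4348549, LOC4334663, LOC4335019, LOC9271813 and LOC4329112, and they include the 4 most abundant members of BR. Relative to the BR mean of the same gene, the value in Fe replicate 2 was 0.120% for LOC9268685, 0.452% for LOC4342974, 0.954% for LOC4334663, 1.42% for LOC4348549, 1.60% for LOC4335019 and 6.31% for LOC9271813. The part of these libraries' state in the low values was not tested, and values this far below 1 FPKM have no known depth behind them. With both libraries left out of the rule the set held 32 genes.

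**Figure D3:**
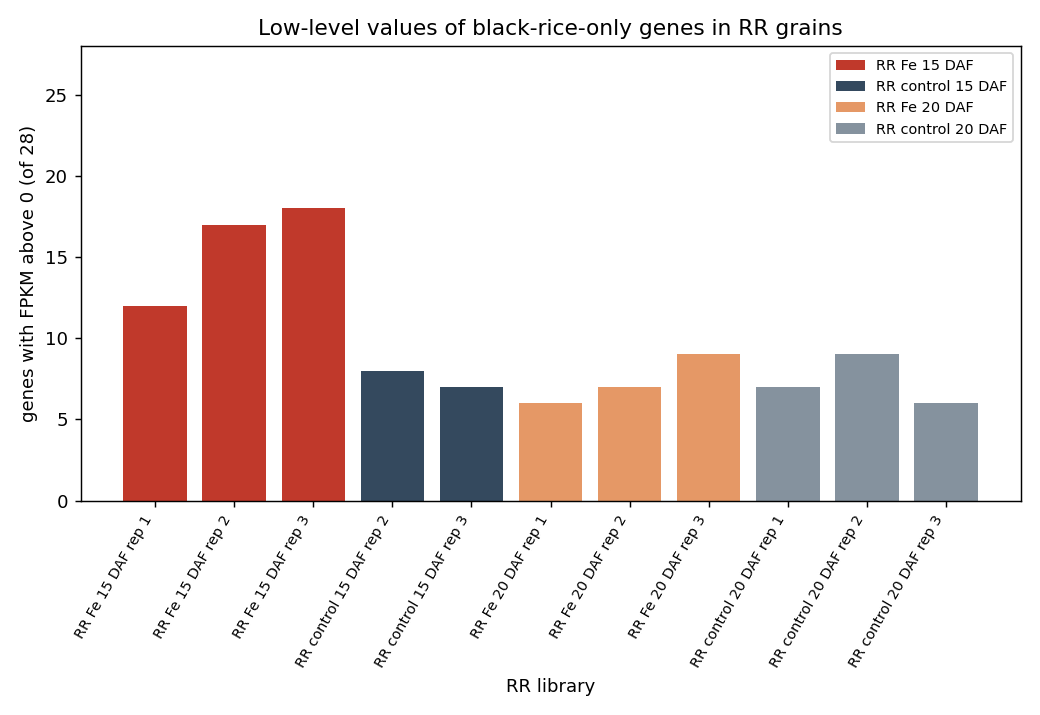
Number of the 28 black-rice-only genes with an FPKM above 0 in each RR library (bars from 0; Fe and control at 15 and at 20 DAF). Fe replicates 2 and 3 at 15 DAF have 17 and 18 genes above 0, and the other 9 libraries have 6 to 12.

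The levels of the rule cut through a continuum. Just inside the BR level of 5 were LOC4340373 (lowest BR value 5.07 FPKM), LOC4342726 (5.17) and NewGene_7589 (5.34), and just outside it were LOC9272174 (4.94), NewGene_1296 (4.86) and LOC4351753 (4.82). Just inside the RR level of 1 were NewGene_7589 (highest RR value 0.974 FPKM), LOC4348549 (0.881) and LOC9270089 (0.863). NewGene_1992 (1.17), LOC4329601 (1.18) and LOC9269468 (1.20) fell just outside that level. The value of NewGene_7589 came from RR Fe replicate 1 at 15 DAF alone, and this gene was listed at 0 in the other 10 RR libraries.

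Fe and control grains of BR were compared next. The rule did not use this contrast, although it required an FPKM of at least 5 in both arms and so left out any gene lost in 1 of them. The rule does enter the limma tests of the members. Their spread was pooled over the 6 groups, and the rule held every RR value of a member below 1. Member calls and p-values are therefore not comparable with those of other genes. Whether the rule lowered the standard errors of the members was not tested. With the 6 BR libraries fitted alone, 0 members and 60 genes of the whole table were called. All 28 members were among the 19774 genes tested with limma. Of the members 5 rose under Fe and 0 fell at an adjusted p below 0.05. Over all genes tested 0.915% rose, 1.06% fell and 1.97% were called in either direction, and among the 4565 genes at FPKM of at least 5 in all BR libraries 1.64% were called. At an unadjusted p below 0.05 in limma there were 12 of the 28 members, beside 2537 of the 19774 genes tested (12.8%). Because the rule enters the pooled spread, neither member count is read as an excess over these shares. The median log2 change of the members was 0.10, beside 0.01 for all genes tested and 0.09 for the genes at FPKM of at least 5. Of the 28 members 16 were higher and 12 lower in Fe grains.

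The 5 members that rose were 1.98 to 2.79 times as high in Fe grains. LOC4348549 averaged 91.4 ± 24.6 FPKM in Fe grains and 32.8 ± 12.5 in control grains (SD, n = 3 each). The fitted log2 difference was 1.501 with a standard error of 0.253, and limma gave an adjusted p of 0.00362. LOC4340373, a gene for which the study designed qPCR primers, had 18.4, 23.8 and 22.6 FPKM in Fe grains, against 12.8, 5.07 and 6.19 in control grains. The log2 difference of LOC4340373 was 1.41 with a standard error of 0.246, at an adjusted p of 0.00442 in limma. Fe libraries of both genes lay above every control library, and both calls stood whichever of the 6 BR libraries was left out, with adjusted p of at most 0.0258 for LOC4348549 and 0.0468 for LOC4340373 in limma. Both calls were lost in limma with the 6 BR libraries alone (adjusted p = 0.0840 for LOC4348549 and 0.0852 for LOC4340373). They were also lost with a replicate block in the model (0.0643 and 0.0748) and with a pseudocount of 0.1 (0.175 and 0.176). Log2 differences in these fits were 1.41 to 1.53.

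The other 3 rose by smaller steps. LOC107275995 had 19.5, 15.2 and 30.1 FPKM in Fe grains, against 8.49, 7.16 and 13.2 in control grains, a log2 difference of 1.07 with a standard error of 0.227 (limma, adjusted p = 0.0175). LOC4339223 had 14.3, 21.5 and 16.0 FPKM in Fe grains, against 9.71, 6.37 and 10.1 in control grains, a log2 difference of 0.92 with a standard error of 0.192 (limma, adjusted p = 0.0167). LOC4336503, whose values are given above, averaged 22.9 ± 7.36 FPKM in Fe grains and 11.4 ± 0.171 in control grains (SD, n = 3 each), at a log2 difference of 0.90 and a standard error of 0.215 (limma, adjusted p = 0.0386). All 3 had arms that did not overlap. With 1 library left out, LOC4339223 kept its call in 4 of 6 fits (adjusted p up to 0.148 from limma, without control replicate 2), LOC107275995 in 3 (up to 0.176, without Fe replicate 3) and LOC4336503 in 1 (up to 0.209, without Fe replicate 1). Each of these fits left out a BR library and kept the RR libraries. Fitted with the 6 BR libraries alone, all 3 calls were lost in limma. Adjusted p was then 0.163 for LOC4339223, 0.174 for LOC107275995 and 0.182 for LOC4336503.

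The 5 genes also followed each other over the 6 BR libraries. Pearson's r of log2(FPKM + 1) was 0.995 between LOC4348549 and LOC4339223, 0.907 between LOC4340373 and LOC4339223, and 0.901 between LOC4348549 and LOC4340373. The lowest of the 10 pairs was LOC107275995 with LOC4336503 at 0.480. These points share the treatment and the libraries, so the values describe the same split of Fe and control grains. Over all 378 pairs of members the median r was -0.01.

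**Figure D4:**
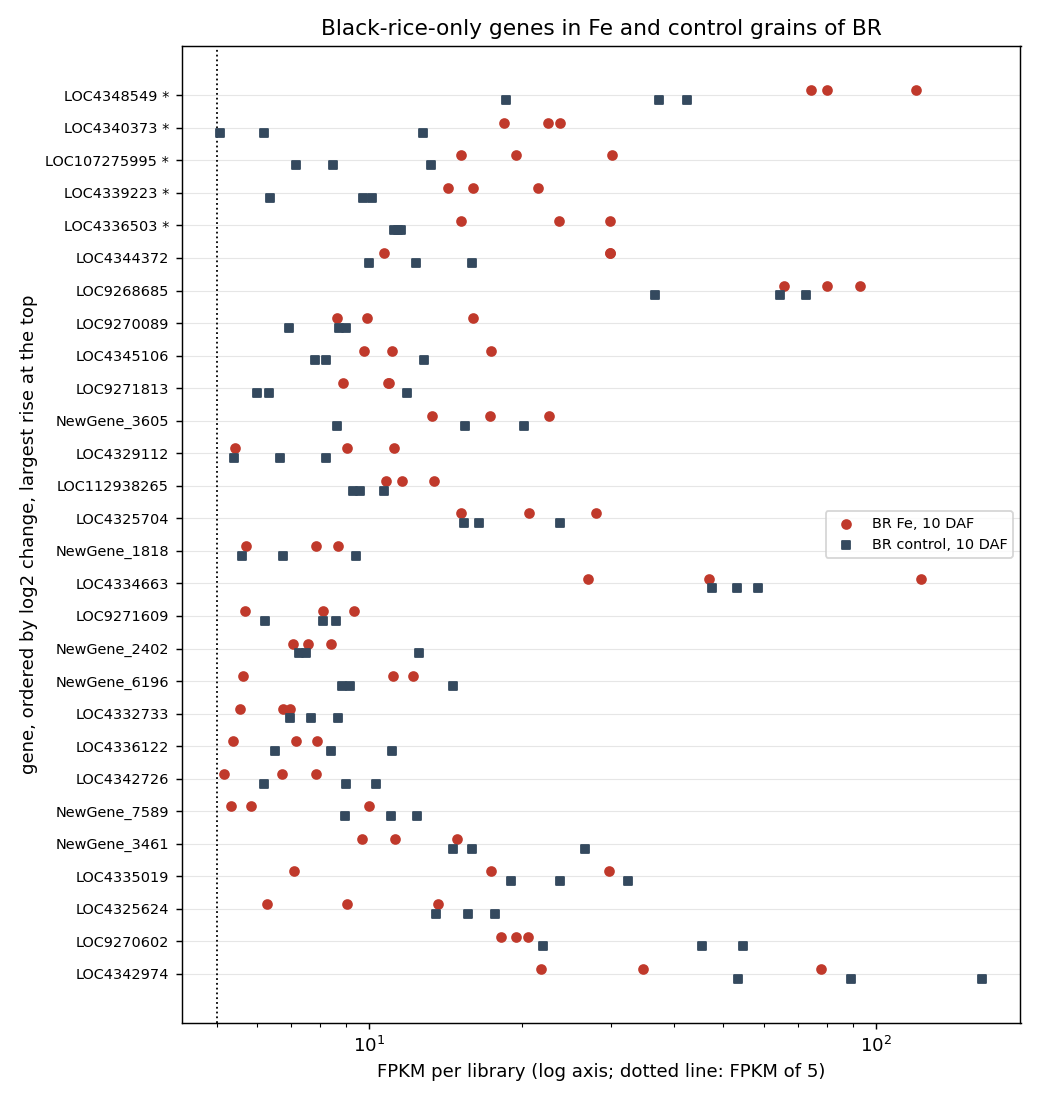
FPKM per library (log axis) of the 28 black-rice-only genes in the 3 Fe (red circles, upper) and 3 control libraries (dark squares, lower) of BR at 10 DAF, ordered by log2 change; asterisks mark the 5 genes that rose at an adjusted p below 0.05 from limma. The arms of these 5 genes do not overlap, and most of the other 23 genes overlap.

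None of the remaining 23 members passed, with adjusted p of 0.0648 or more from limma. Arms that did not overlap were seen for 8 of the 28 members (28.6%), 6 higher and 2 lower. They were seen for 14.4% of all genes tested, 8.29% higher and 6.11% lower, and for 16.9% of the genes at FPKM of at least 5. The 3 without a call were the pseudogene LOC9270602, LOC4332733 and LOC112938265. LOC9270602 averaged 19.4 ± 1.20 FPKM in Fe grains and 40.7 ± 16.9 in control grains (SD, n = 3 each), and limma gave a log2 difference of -0.94 at an adjusted p of 0.0648. LOC4332733 had a log2 change of -0.24 and LOC112938265 one of 0.25. LOC4342974 had the lowest log2 change, -1.21, with an adjusted p of 0.107 from limma, and its control libraries ran from 53.5 to 162 FPKM.

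BR Fe replicate 2 decided several of these outcomes. Without it 10 members were called instead of 5, beside 1514 genes of the whole table instead of 390. LOC4344372 (log2 change 1.19, adjusted p = 0.000751 from limma) was then higher, and LOC4342974 (-1.70, 0.00187), LOC4325624 (-0.95, 0.00927), LOC4335019 (-1.06, 0.0253), NewGene_3461 (-0.76, 0.0254) and LOC9270602 (-0.89, 0.0448) were lower under Fe, while LOC4336503 lost its call. Without Fe replicate 1 or 3 the count was 3, and without control replicate 2 it was 2. It was 0 with the 6 BR libraries fitted alone or with a pseudocount of 0.1. LOC9270602 and LOC4342974 also passed without control replicate 1 (adjusted p = 0.00106 and 0.0242 from limma).

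Summed levels of gene lists for other grain tissues and processes varied between the same libraries. Summed FPKM of the 9 seed maturation genes (embryo and aleurone) was 358, 763 and 238 in Fe grains, against 524, 1019 and 1810 in control grains of BR. Summed FPKM of 20 photosynthesis genes was 989, 351 and 668 in Fe grains, against 255, 456 and 411 in control grains. Summed FPKM of 48 cell cycle genes was 417, 336 and 405 in Fe grains, against 323, 375 and 363 in control grains. Fe replicate 2 lay within the control range on these 3 lists, and Fe replicates 1 and 3 lay outside it. The 45 storage genes summed to 259268, 286950 and 266999 in Fe grains, against 299945, 255316 and 252752 in control grains. Every Fe library lay within the control range on this list. The part of these lists in the changes of the members was not tested.

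The Fe response of the members could hardly be compared between varieties, because their RR values were below 1 in both arms by the rule. The difference between the Fe response of BR and that of RR at 15 DAF passed for 0 members with limma (smallest adjusted p 0.431) and for 1 gene of the whole table.

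Little is known of the members by name. Of the 28, 6 are new genes of the assembly and 22 have an annotation ID, of which all 22 were found in the reference gene table. New genes made up 21.4% of the members, beside 2.21% of the 4565 genes at FPKM of at least 5 in all BR libraries and 3920 of the 32657 genes of the whole table. The annotated members comprise 20 protein-coding genes, the pseudogene and the miscellaneous RNA. Short gene names were given to 0 of the 22, beside 21.3% of the 4441 genes at FPKM of at least 5 in all BR libraries that were found in the same table. As the lists of gene groups were built on short names, no member could be placed in any of the 15 lists, among them flavonoid enzymes, photosynthesis, storage, sugar transport, metal handling, transcription factors and defense. The list of pigment regulators matched no gene of the table at all. This says nothing of what the members do.

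The annotated members were spread over 10 of the 12 chromosomes, with 5 on chromosome 7, 4 on chromosome 8, 3 each on chromosomes 3 and 4, and none on chromosomes 9 and 12. None of the 22 annotated members had another member as its neighbor in the gene order of the reference. The 6 new genes have no position there and were not examined. Of the 44 flanking genes, 21 were below 1 FPKM in all 17 libraries and 14 were at 1 or more in every library. Of the 23 flanking genes above 1 FPKM in some library, 2 had all BR libraries above the RR libraries, 3 lay the other way and 18 overlapped. Over all genes tested 4.99% lay above, 33.3% lay below and 61.7% overlapped.

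A few neighbors of members were picked with their values in view. LOC112938210, next to LOC112938265, had 1.01 to 2.39 FPKM in BR and was listed at 0 in all RR libraries. LOC4324137, next to LOC4325624, had 0.738 to 2.82 FPKM in BR and at most 0.0208 in RR. In contrast, LOC4342727, next to LOC4342726, had 9427 to 16047 FPKM in BR and 220 to 11651 in RR, while LOC4342726 itself had 5.17 to 10.3 FPKM in BR and was listed at 0 in RR. LOC9266043, next to LOC4329112, was lower in BR, with 3.66 to 9.17 FPKM against 18.6 to 104 in RR.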

How the data were processed

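Total RNA of grains was sequenced as poly(A) libraries on an Illumina instrument. The authors aligned clean reads to the IRGSP rice reference with HISAT2, assembled them with StringTie and deposited FPKM values per library; tool versions are not given in the sources used here. Counts were not used here, so DESeq2, the tool of the study, was not applied. Low values of neighboring BR libraries were searched for steps of a single read (tolerance 0.002 log2), and at most 17 genes shared a step, so depth stays unknown.

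Values were analysed as log2(FPKM + 1) with limma 3.58.1 in R 4.3.3, and tables and figures were made in Python 3.11.15. A gene was tested if 2 or more libraries reached an FPKM of 1. The model held the means of the 6 groups, took in the 17 libraries together, and let the variance differ between groups (arrayWeights) and follow a trend in eBayes. It was tested on simulated data, with 1 spread per gene and 1 factor per group. That simulation was not built to show what the rule does to the spread of the members. Tests were two-sided, Benjamini-Hochberg adjustment ran over the whole set of genes tested, and a call needs an adjusted p below 0.05. P-values measure the spread between replicates of 6 pails each, pooled over the 6 groups. For the members this pool includes the RR libraries held below 1 by the rule, so it is not the spread of BR replicates alone. The first RR control replicate of 15 DAF was not used here.

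The members and lists were chosen with earlier results of these data known. Named genes are the 10 most abundant members, the members called under Fe, and the 3 genes on each side of both levels; any other gene was picked with its values in view. The reference gene table is of another assembly (ASM3414082v1), and it was used for names, chromosomes and gene order, not for coordinates; sequence motifs and protein lengths were not examined. Alternatives were another pseudocount, other filters, fits of BR alone, without the variance factor, with centring, quantile normalization or a replicate block, each library left out, other thresholds and other levels of the rule.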

Additional observations from a re-analysis of the deposited data

How the results depend on the processing

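The number of members called under Fe (5) was 4 without a filter and 5 with values centred on library medians. It was 3 with a filter at FPKM of 5 or with quantile normalization, 2 without the variance factor or at the thresholds of the study (adjusted p below 0.01 and a fold of at least 1.5), and 0 with a pseudocount of 0.1 or with the 6 BR libraries alone. Genes called over the whole table numbered 390, and 67, 134, 83, 141, 60 and 102 with the pseudocount of 0.1, the filter at 5, no variance factor, the thresholds of the study, BR alone and the replicate block. With the replicate block 1 member was called (LOC107275995), although same-numbered Fe and control libraries of BR did not deviate together (r of 0.01, -0.36 and -0.13), so the numbers were not taken as pairs. With 1 BR library left out the count ran from 2 to 10, and that over the whole table from 109 to 1514. Over the 14 alternatives refitted gene by gene, which leave out the thresholds of the study, no member changed direction with a call, and 8 calls were gained and 32 lost. Across them the median log2 change of the members stayed between 0.05 and 0.19. The set of 28 genes grew to 105 with a BR level of 2, and shrank to 7 with a BR level of 10, to 15 with an RR level of 0.5 and to 4 with an RR level of 0. With 1 RR library left out of the rule it held 28 to 32 genes. FPKM values carry no depth, so the precision of RR values below 1 is unknown.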

Other observations

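The reverse rule, an FPKM of at least 5 in all 11 RR libraries and below 1 in all 6 BR libraries, was met by 74 genes, of 6167 at FPKM of at least 5 in all RR libraries. Of these, 30 were new genes of the assembly (40.5%), beside 6 of the 28 black-rice-only genes (21.4%). No gene was left out of the reverse rule beforehand, while LOC4325716 was left out of the black-rice-only genes. The rules span 11 and 6 libraries, and RR covers 2 days and BR 1, so the counts were not tested against each other.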
